A study of Mus musculus with 14 samples.

Results

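Hepatocyte maturation between postnatal day 10 (P10) and 1 month of age was followed in mice whose hepatocytes lack the splicing factor gene Srsf1. Both knockout libraries of 1 month were set against both knockout libraries of P10, and the same step in control hepatocytes was used to read which changes took place, fell short or were made up. Transcript abundances were summed per gene, and the 11981 of 54446 genes that averaged 1 or more TPM (transcripts as a share of the library, corrected for transcript length) over these 4 of the 14 libraries of the series were kept. A gene that was on in controls alone could fall under this minimum and is then in no count below. At that limit Mn1 and Tmem107 lay just inside, each with a mean of 1.0002 TPM, and Klhl23 at 0.9998 TPM and Zfp37 at 0.9997 TPM lay just outside.

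RNA was measured in purified, flash-frozen hepatocytes by sequencing of stranded mRNA libraries. All mice were C57BL/6 and untreated. The knockouts, called HKO in the labels, carried srsf1f/f and albcre+/-, so that Cre under the albumin promoter removes Srsf1 in hepatocytes from before birth onwards. The controls carried albcre+/-, so both genotypes have the Cre transgene, and the labels name no floxed Srsf1 allele for the controls. There were 4 groups of 2 libraries: knockouts at 1 month, knockouts at P10, controls at 1 month and controls at P10, and the library names of the older groups read 5wk. The labels do not say whether the 2 libraries of a group came from separate animals, so the p-values measure only the spread between these libraries.

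In the first weeks after birth the liver gives up blood formation, its hepatocytes leave the cell cycle, and fetal genes such as Afp and Igf2 are silenced. Around weaning the hepatocyte takes on its adult work: it makes urea, bile acids and drug-metabolizing enzymes, and under pulsed growth hormone it acquires sex-typical genes such as those of the major urinary proteins. SRSF1 belongs to the serine/arginine-rich (SR) proteins, which bind exons and guide the choice of splice sites.

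Srsf1 itself (ENSMUSG00000018379.17, chromosome 11, 88047373 to 88053755, plus strand, GENCODE M21 on GRCm38) measured 11.7 and 9.91 scaled TPM in 1-month knockouts and 20.4 and 17.1 in P10 knockouts, against 31.5 and 24.0 in 1-month controls and 38.1 and 40.0 in P10 controls. The labels do not say which exons are deleted, so these summed levels may hold reads of a truncated transcript. Here and below, scaled TPM are deposited TPM divided by 1 factor per library, so that the typical gene is level across libraries. Every knockout library lay below every control library, and in knockouts the gene was also lower at 1 month than at P10, with a log2 age change of -0.74 ± 0.16 (SE; adjusted p = 0.00917). That age change was lost when the second 1-month knockout library (adjusted p = 0.051) or the first P10 knockout library (adjusted p = 0.0541) was left out.

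The libraries differed in composition. Transcripts of the mitochondrial genome took 50.6% and 35.8% of the TPM in 1-month knockouts, 27.5% and 33.9% in P10 knockouts, 31.2% and 26.0% in 1-month controls and 28.3% and 31.7% in P10 controls. On deposited TPM the median gene moved by -0.71 (log2) between the knockout ages, against -0.43 between the control ages, and after scaling by -0.01 and 0.01. The second P10 knockout library had 74.7 TPM of Xist and 0.144 TPM of 4 Y-linked genes, whereas the other 7 libraries had at most 0.0102 TPM of Xist and 32.0 to 66.8 TPM of the Y-linked genes. The same library had 583 TPM of the red-cell gene Hba-a1, against 45.6 to 95.5 TPM in the other P10 libraries, so results below are given without it where it decides them.

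Maturation changed a large part of the transcriptome in the knockout. Of the 11981 genes, 2562 rose (21.4%) and 2812 fell (23.5%) between P10 and 1 month in knockouts, 44.9% in all. In controls 2820 rose (23.5%) and 2957 fell (24.7%), 48.2% in all, at an adjusted p under 0.05 in limma. The split between directions rests on the scaling: on deposited TPM 523 rose and 7530 fell in knockouts and 696 rose and 4638 fell in controls, and with a scaling to nuclear protein-coding genes the numbers were 1220 and 5744 in knockouts and 1124 and 5635 in controls. Of the falls called in knockouts, 2454 (87.3%) were called under every scaling run, but of the rises only 512 (20.0%). Directions below are relative to the median gene, and those that turn under another scaling are marked. Where a list's count of 5 or more moved by over 1.5 times under any alternative scaling, filter, offset or model, or without any single library, its lowest and highest counts stand in brackets with the setting that gave the extreme, or the deviating count stands in the same sentence. Counts below 5 often moved by as large a factor and are bracketed only in part.

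The age change itself differed between genotypes for 685 genes (5.72%), 385 with a more positive change in knockouts (3.21%) and 300 with a more negative one (2.50%). On deposited TPM these were 115 and 217, and leaving out single libraries gave 49 to 550 more positive and 34 to 347 more negative genes. The lowest came without the second (49 and 34) and the first (68 and 46) P10 control library, followed by the second P10 knockout library (161 and 99) and the first 1-month knockout library (256 and 149). Only 44 and 32 genes kept the call without each library in turn. Genes that kept it are preferred below, and for the others the adjusted p without the deciding library is given.

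Each of the 5777 genes that changed in controls was sorted by what it did in knockouts. A change was followed when it was called in the same direction in knockouts and its size was not called different, which held for 3572 genes (61.8%): 1659 of 2820 rises (58.8%) and 1913 of 2957 falls (64.7%). It was blunted, present but smaller, for 217 genes (82 rises and 135 falls), failed for 256 (109 and 147), and exceeded the control change for 55 (31 and 24), while 1677 (29.0%) could not be resolved. Most followed, blunted, failed and exceeded genes left their class when some single library was left out. Another 157 genes changed in knockouts only, with the age difference called: 72 rose and 85 fell. These counts depend on calls of contrasts that share libraries, and without single libraries the failed steps numbered 28 to 312, the blunted ones 37 to 314 and the exceeded ones 6 to 95, fewest without either P10 control library.

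**Figure D1:**
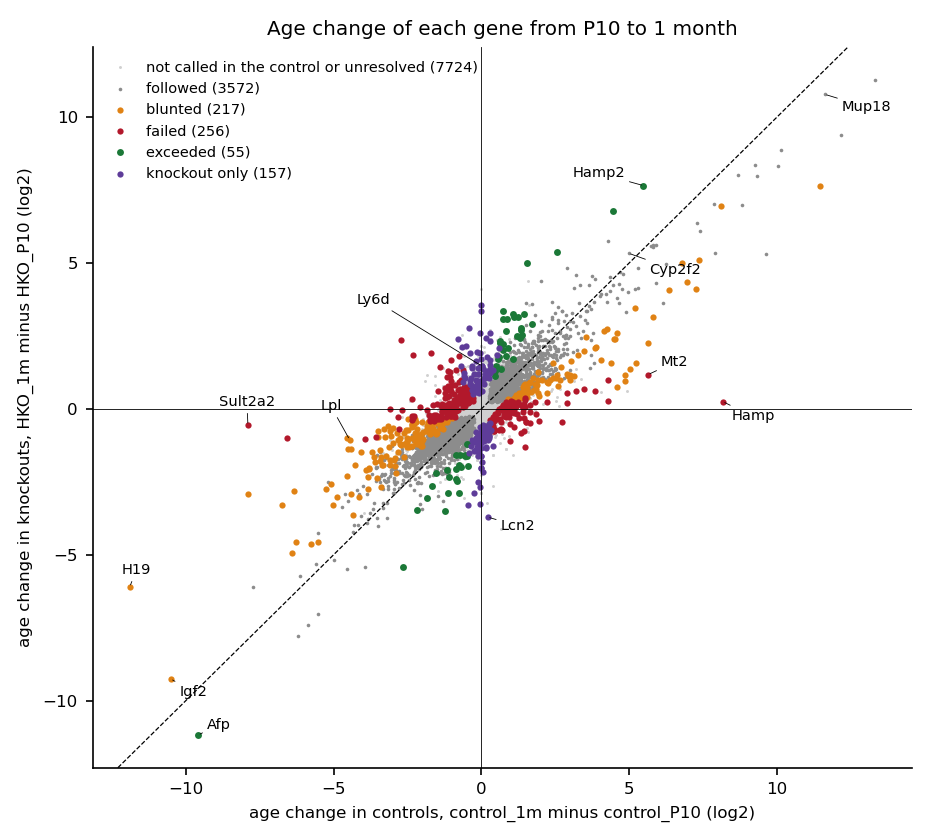
Log2 change from P10 to 1 month in knockouts (vertical axis) against that in controls (horizontal axis) for the 11981 genes, 1 point a gene, coloured by the class of its step, with the line of equal change. Most of the 3572 followed genes lie along the line, and Hamp, Sult2a2 and H19 lie far from it, with age differences of -7.93, 7.35 and 5.79 (log2).

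Most tested fetal genes fell in knockouts, but as a list they stayed above controls at 1 month. Their median difference from controls was then 0.78 (log2), against 0.005 over all genes, and 1.64 with an offset of 0.1 TPM. Of 14 tested fetal and oncofetal genes 10 fell and 3 rose in knockouts, with a median log2 change of -1.70, against 10 and 1 (1 to 3, most with quantile normalization) in controls. Afp, the fetal counterpart of albumin (chromosome 5, 90490737 to 90508907, plus strand), measured 1.33 and 1.06 scaled TPM in 1-month knockouts and 4149 and 6212 in P10 knockouts, against 0.314 and 0.584 in 1-month controls and 968 and 1265 in P10 controls. At P10 the knockout libraries held more Afp than the control libraries, and by 1 month both genotypes were near or below 1 scaled TPM, so the knockout fall of -11.18 ± 0.22 (SE; adjusted p = 3.48e-06) on the log2 scale began from a higher level. Cyp3a16, a cytochrome P450 of the immature mouse liver, measured 0.0491 and 0.0366 scaled TPM in 1-month knockouts and 94.9 and 52.3 in P10 knockouts. In knockouts Cyp3a16 changed by -6.10 ± 0.30 (SE; adjusted p = 5.29e-05). Gpc3, a cell-surface proteoglycan of the fetal liver, changed by -4.57 ± 0.10 (SE; adjusted p = 4.21e-06) in knockouts, and Bex1, a small fetal-type adaptor protein, by -5.43 ± 0.29 (SE; adjusted p = 6.92e-05). Both were below 1 scaled TPM in all 4 libraries of 1 month, where the offset of 1 compresses differences. In the authors' deposited table the 1-month difference from controls was 3.95 (log2) for Gpc3, 4.56 for Bex1 and 1.32 for Afp. Aldh1a7, an aldehyde dehydrogenase in the same list, went the other way in knockouts and rose by 2.16 ± 0.17 (SE; adjusted p = 2.50e-04).

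The imprinted growth genes, which are expressed from the maternal or the paternal copy alone, active before weaning and then silenced together, fell in 14 of 16 tested members in knockouts (median -2.24) and in 13 in controls (median -2.71). Igf2, the fetal insulin-like growth factor (chromosome 7, 142650766 to 142666816, minus strand), measured 0.804 and 0.481 scaled TPM in 1-month knockouts and 963 and 1035 in P10 knockouts, against 0.135 and 0.217 in 1-month controls and 1737 and 1699 in P10 controls. Its log2 change was -9.26 ± 0.12 (SE; adjusted p = 4.26e-07) in knockouts and -10.51 in controls. Meg3 and Rian, long noncoding RNAs of another imprinted domain, changed by -4.62 and -5.19 in knockouts. Slc38a4, an amino acid transporter and also imprinted, rose in both genotypes, by 0.93 ± 0.13 (SE; adjusted p = 0.00189) in knockouts.

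Silencing was less deep in knockouts for several members. H19, the maternally expressed noncoding RNA next to Igf2 (chromosome 7, 142575529 to 142578143, minus strand), measured 24.9 and 62.6 scaled TPM in 1-month knockouts and 2983 and 2604 in P10 knockouts, against 0.186 and 0.298 in 1-month controls and 4787 and 4668 in P10 controls. By group means the 1-month knockouts held 181 times the level of 1-month controls although both had fallen far from P10, and the age difference was 5.79 ± 0.52 (SE; adjusted p = 0.00491). Cdkn1c, an inhibitor of cyclin-dependent kinases, measured 1.80 and 2.25 scaled TPM in 1-month knockouts, against 0.804 and 0.986 in 1-month controls, with a change of -3.02 in knockouts, -4.88 in controls and an age difference of 1.86 ± 0.15 (SE; adjusted p = 0.0031). Both genes kept the call when each library was left out, and both were higher in each 1-month knockout library than in each 1-month control library.

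Lpl, the lipase that frees fatty acids from circulating fat and that hepatocytes normally silence after birth, stayed on in knockouts. It measured 46.4 and 59.9 scaled TPM in 1-month knockouts and 117 and 104 in P10 knockouts, against 4.83 and 7.97 in 1-month controls and 173 and 145 in P10 controls. The gene fell by a log2 change of -1.05 ± 0.23 (SE; adjusted p = 0.0103) in knockouts and -4.46 in controls, and the age difference of 3.42 ± 0.32 (SE; adjusted p = 0.0052) was called without each library in turn. Its fall in knockouts was lost without the first 1-month (adjusted p = 0.0555) or the first P10 (adjusted p = 0.058) knockout library. Nrep, a small neuronal regeneration-related protein, also fell less in knockouts, but from a lower start. It measured 8.46 and 9.90 scaled TPM in 1-month knockouts and 20.6 and 18.0 in P10 knockouts, against 2.25 and 3.34 in 1-month controls and 85.8 and 87.1 in P10 controls. Its difference from controls was 1.43 at 1 month and -2.11 at P10, both called, and its age difference was 3.55 ± 0.22 (SE; adjusted p = 0.00212).

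**Figure D2:**
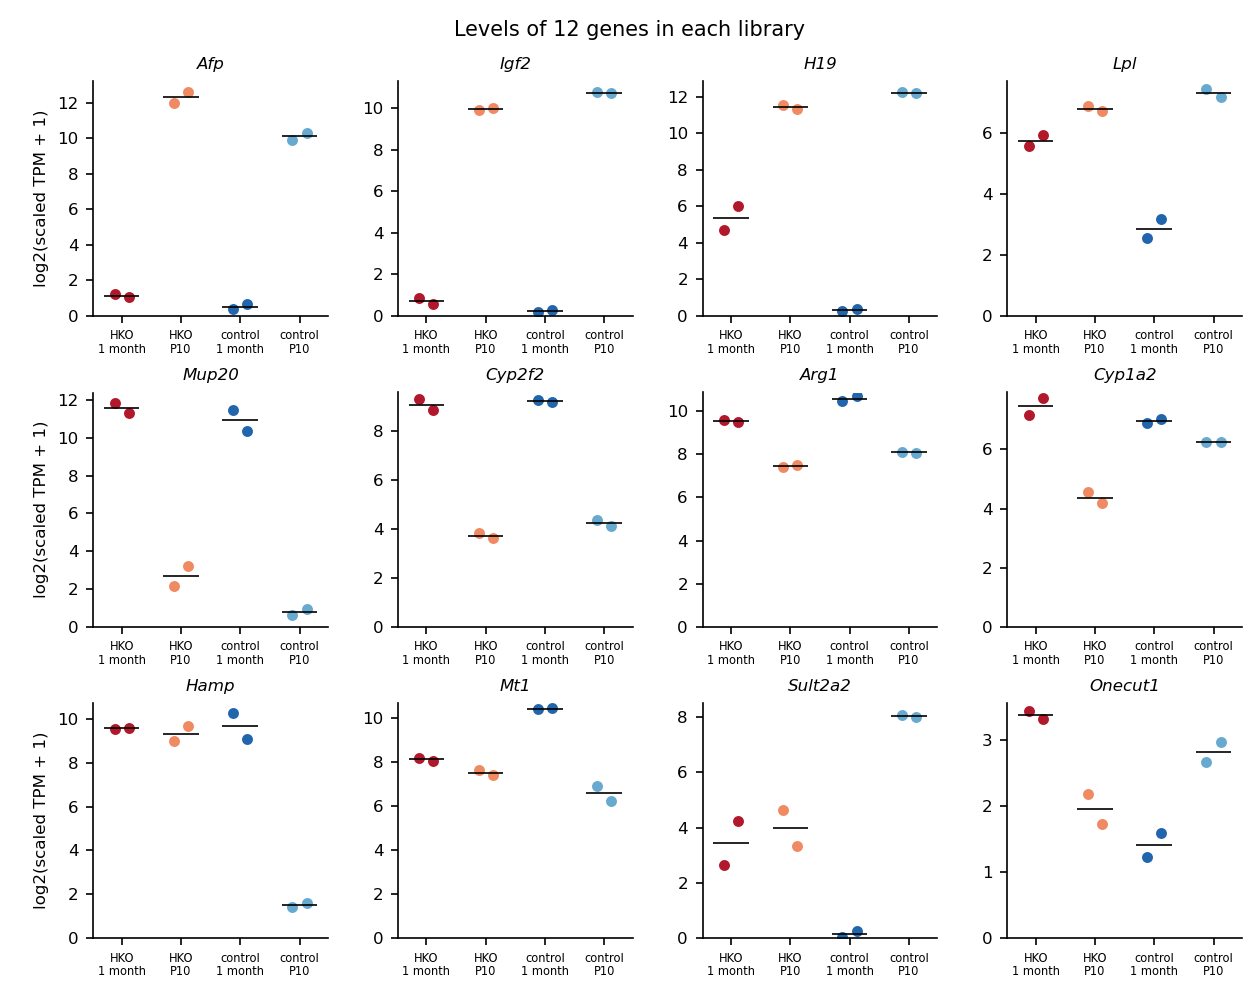
Levels as log2(scaled TPM + 1) for 12 genes in each of the 8 libraries, 1 point a library, with 1-month knockouts, P10 knockouts, 1-month controls and P10 controls from left to right. Afp and Igf2 are near or below 1 scaled TPM at 1 month in both genotypes, where the offset of 1 compresses differences. H19 and Lpl stay higher in 1-month knockouts, and Hamp is low in P10 controls only.

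Mitotic and DNA replication genes were followed as separate lists. Promoter sequences of 3 cell-cycle genes are shown as examples of the motifs searched in both lists. They are RefSeq promoters on GRCm38.p6, from 250 bases before to 50 after the start, written in the direction of transcription: Ccnb2, a mitotic cyclin, chr9:70421505-70421804, minus strand; Cdc20, an activator of the anaphase-promoting complex, chr4:118437294-118437593, minus strand; and Uhrf1, which keeps DNA methylation through replication, chr17:56303087-56303386, plus strand. Capitals mark TTTGAA, the core of the cell cycle genes homology region that the DREAM complex reads, CCAAT, the site of NF-Y, and GGCGGGAA, an E2F site, each on either strand, so that reverse complements are in capitals too.
Ccnb2: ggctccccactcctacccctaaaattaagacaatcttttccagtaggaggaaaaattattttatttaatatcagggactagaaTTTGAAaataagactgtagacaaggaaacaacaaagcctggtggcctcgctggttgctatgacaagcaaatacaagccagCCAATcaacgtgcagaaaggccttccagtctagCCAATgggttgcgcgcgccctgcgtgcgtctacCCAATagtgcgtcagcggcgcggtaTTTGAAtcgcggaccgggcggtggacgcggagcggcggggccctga
Cdc20: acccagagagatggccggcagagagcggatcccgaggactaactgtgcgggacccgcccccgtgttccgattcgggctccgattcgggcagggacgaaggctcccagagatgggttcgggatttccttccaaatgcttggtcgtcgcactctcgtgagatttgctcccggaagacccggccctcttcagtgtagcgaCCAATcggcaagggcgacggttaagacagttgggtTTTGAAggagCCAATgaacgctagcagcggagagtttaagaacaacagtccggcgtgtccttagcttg
Uhrf1: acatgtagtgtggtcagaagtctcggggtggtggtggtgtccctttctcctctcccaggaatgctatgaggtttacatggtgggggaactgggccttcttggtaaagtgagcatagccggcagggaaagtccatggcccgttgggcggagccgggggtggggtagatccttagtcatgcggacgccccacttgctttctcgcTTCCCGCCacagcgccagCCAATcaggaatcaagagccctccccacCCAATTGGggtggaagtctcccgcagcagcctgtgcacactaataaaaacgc

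TTTGAA occurred 2 times in the Ccnb2 promoter, 1 time in that of Cdc20 and in none of the Uhrf1 sequence, which held a GGCGGGAA match. A second Uhrf1 promoter in the same table and the promoter of Mcm5 held neither of these. Among promoters of 29 mitotic genes with an entry, 25 of 31 (80.6%) held TTTGAA, against 3 of 32 (9.38%) of 27 DNA replication genes and 17.9% of all 32851 promoters. GGCGGGAA was in 0 of 31 mitotic and 7 of 32 replication promoters (21.9%), against 2.19% of all. CCAAT was in 25 of 31 mitotic (80.6%) and 18 of 32 replication promoters (56.2%), against 37.4% of all. TTTGAA was in 19 of 23 promoters (82.6%) of mitotic genes with a called age difference and in 6 of 8 of the other mitotic genes. These are matches of letters in a fixed window and do not show binding.

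The mitotic genes were only partly turned down in knockouts. Of 34 tested members 33 fell in knockouts with age and all 34 in controls, but the median log2 change was -1.12 in knockouts against -2.47 in controls. The age difference was called for 25 (5 to 32, fewest without the second P10 control library) members, all more positive in knockouts, with a median of 1.29 against 0.003 over all genes. At 1 month all 34 were higher in knockouts than in controls, as were 8.85% of all genes, and at P10 4 (0 to 26, fewest with an offset of 0.1 TPM or without the second P10 knockout library or either P10 control library and most with nuclear protein-coding scaling) were, as were 8.71% of all genes. The summed level of the list was 141 and 122 in 1-month knockouts and 328 and 389 in P10 knockouts, against 6.86 and 13.2 in 1-month controls and 266 and 278 in P10 controls. The count of 25 was 12 on deposited TPM, 14 with quantile normalization and 9 without the first P10 control library, always in the same direction. With an offset of 0.1 in place of 1 TPM, which compresses low values less, it was 32.

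Ccnb2 (chromosome 9, 70407692 to 70421547, minus strand) measured 13.5 and 8.75 scaled TPM in 1-month knockouts and 18.0 and 20.2 in P10 knockouts, against 0.420 and 0.507 in 1-month controls and 15.4 and 15.6 in P10 controls. It was below 1 scaled TPM in both 1-month control libraries and well above that in both 1-month knockout libraries, with an age difference of 2.74 ± 0.26 (SE; adjusted p = 0.0052). Cdc20 (chromosome 4, 118432901 to 118437352, minus strand) measured 7.84 and 8.67 scaled TPM in 1-month knockouts and 13.5 and 15.4 in P10 knockouts, against 0.120 and 0.494 in 1-month controls and 9.77 and 10.1 in P10 controls. For Cdc20 the age difference was 2.35 ± 0.21 (SE; adjusted p = 0.00491). Kif20a, a kinesin of the central spindle, measured 5.83 and 4.99 scaled TPM in 1-month knockouts, against 0.185 and 0.379 in 1-month controls. For Kif20a the age difference was 2.12 ± 0.16 (SE; adjusted p = 0.00304). All 3 were called without each library in turn, and in all 3 the 1-month groups did not overlap. Mki67, the proliferation antigen, measured 3.96 and 3.04 scaled TPM in 1-month knockouts, against 0.0431 and 0.198 in 1-month controls, and its age difference of 1.74 ± 0.25 (SE; adjusted p = 0.0151) was lost without either P10 control library (adjusted p = 0.0834 without the first P10 control library and 0.0819 without the second P10 control library). Hmmr, a spindle-associated receptor, was the single member whose fall was not called in knockouts (-0.37 ± 0.16 (SE; adjusted p = 0.0969)).

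Most DNA replication genes fell in both genotypes, and some were higher in knockouts than in controls at 1 month. Of 32 tested members 30 fell and 1 rose in knockouts, and the same numbers held in controls, with medians of -1.43 and -1.56. The age difference was called for 3 members, all more positive in knockouts (median 0.09), and for none on deposited TPM, with quantile normalization, or without the second P10 knockout or either P10 control library. At 1 month 10 (2 to 18, fewest on deposited TPM or with quantile normalization and most with nuclear protein-coding scaling) of the 32 were higher in knockouts, as were 8.85% of all genes. With an offset of 0.1 TPM the median age difference of the list was 0.34. Uhrf1 measured 0.187 and 0.204 scaled TPM in 1-month knockouts and 6.11 and 6.35 in P10 knockouts, against 0.0556 and 0.0294 in 1-month controls and 4.60 and 4.60 in P10 controls, with a change of -2.60 ± 0.09 (SE; adjusted p = 1.82e-05) in knockouts and an age difference of -0.17 ± 0.13 (SE; adjusted p = 0.483). Mcm4, a subunit of the replicative helicase, measured 0.660 and 0.823 scaled TPM in 1-month knockouts and 8.28 and 8.61 in P10 knockouts, with an age difference of 0.01 (adjusted p = 0.971), and Mcm5 of the same complex changed by -2.50 in knockouts. Mcm10, a replication initiation factor, was the member that rose in both genotypes, by 1.96 ± 0.19 (SE; adjusted p = 5.50e-04) in knockouts. Uhrf1, Mcm4 and Mcm5 were below 1 scaled TPM in every 1-month library, where the offset of 1 compresses differences. In the authors' deposited table the 1-month difference from controls was 2.17 (log2) for Uhrf1, 2.43 for Mcm5, 0.37 for Mcm4 and -0.70 for Mcm10. The age differences of the mitotic and the replication list were not tested against each other.

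**Figure D3:**
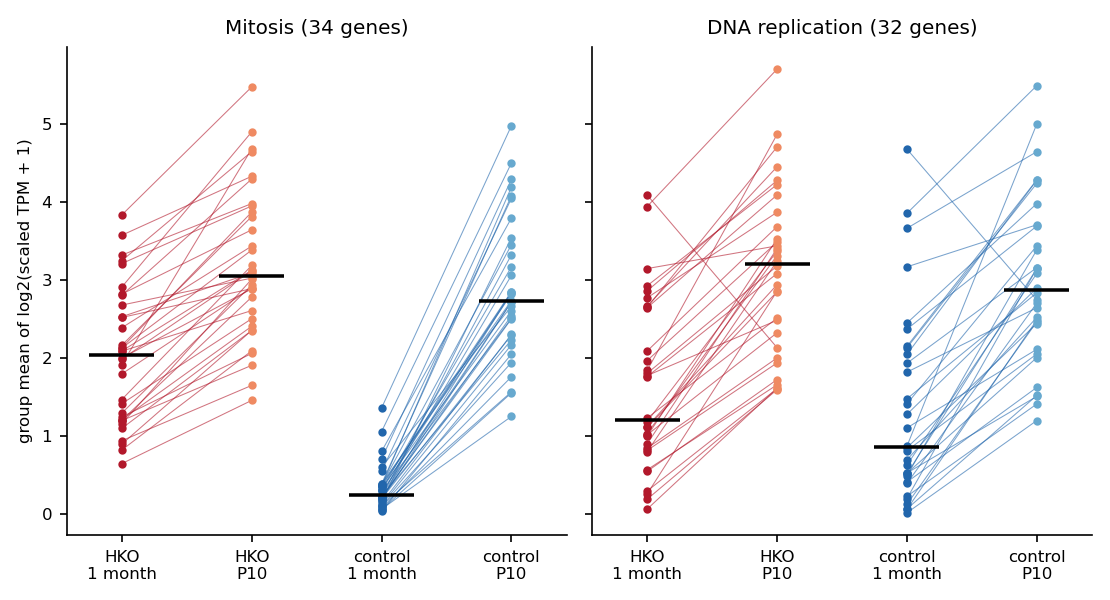
Group means of log2(scaled TPM + 1) for 34 mitotic genes and 32 DNA replication genes, 1 point a gene, with a bar at the median and lines that join the ages of a gene, in 1-month knockouts, P10 knockouts, 1-month controls and P10 controls. The mitotic median of 1-month knockouts sits between those of the P10 groups and the 1-month controls, whereas the replication medians are low in both 1-month groups.

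Markers of other liver cells moved beside the mitotic genes. Of 17 tested macrophage markers 14 (1 to 17, fewest without the first P10 knockout library) fell with age in knockouts, and 6 did without the second P10 knockout library. Their summed scaled TPM were 273 and 74.1 in 1-month knockouts and 600.0 and 438 in P10 knockouts, against 28.3 and 31.1 in 1-month controls and 417 and 431 in P10 controls. The first 1-month knockout library was thus well above the second, while the summed mitotic genes were 141 and 122 in the same libraries. For the macrophage markers the second 1-month knockout library was also above both 1-month control libraries. Endothelial markers summed to 98.1 and 22.9 in 1-month knockouts and 135 and 134 in P10 knockouts, against 23.6 and 16.1 in 1-month controls and 138 and 136 in P10 controls. Stellate cell markers summed to 76.0 and 20.6 in 1-month knockouts and 179 and 155 in P10 knockouts, against 16.1 and 13.1 in 1-month controls and 159 and 173 in P10 controls. In bulk RNA fewer cells of a type and less RNA per cell cannot be told apart, and the part of these cells in the mitotic result was not tested.

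Blood and bile-duct markers fell as well. Erythroid markers summed to 16.6 and 20.5 in 1-month knockouts and 334 and 2150.3 in P10 knockouts, against 26.0 and 17.8 in 1-month controls and 341 and 200.3 in P10 controls. Neutrophil markers summed to 1.74 and 0.816 in 1-month knockouts and 72.7 and 362 in P10 knockouts, against 0.930 and 0.888 in 1-month controls and 217 and 154 in P10 controls. The second P10 knockout library was highest in both. Cholangiocyte markers fell in 9 of 10 tested members in knockouts and in 8 (5 to 9, fewest without the second P10 control library) in controls. They summed to 64.0 and 32.0 in 1-month knockouts and 133 and 167 in P10 knockouts, against 8.25 and 7.60 in 1-month controls and 92.0 and 98.6 in P10 controls. The 1-month knockout libraries lay above the 1-month control libraries, but Krt7, Krt19, Cftr, Muc1 and Pkhd1 were below 1 TPM. The 7 hepatocyte markers summed to 74759 and 72405 in 1-month knockouts and 51932 and 43777 in P10 knockouts, against 81660.3 and 92589 in 1-month controls and 98575 and 92771 in P10 controls. Markers of the labelled cell type were far above those of the other types in every library.

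The major urinary proteins, pheromone carriers that make up much of the secreted protein of the adult male mouse, were switched on in knockouts. All 17 tested Mup genes rose in knockouts (median 6.95, against -0.01 for all genes) and in controls (median 8.11). Mup18 measured 3827 and 2677 scaled TPM in 1-month knockouts and 0.401 and 1.34 in P10 knockouts, against 4057 and 3499 in 1-month controls and 0 and 0.416 in P10 controls. In knockouts Mup18 changed by 10.79 ± 0.30 (SE; adjusted p = 6.20e-06). Mup20, the pheromone darcin, measured 3653 and 2547 scaled TPM in 1-month knockouts and 3.49 and 8.32 in P10 knockouts, against 2832 and 1325 in 1-month controls and 0.554 and 0.921 in P10 controls. By group means the 1-month knockouts held 3738 times the Mup18 and 525 times the Mup20 of P10 knockouts, and no library of 1 month overlapped with one of P10.

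Some members did not reach the control level. At 1 month 10 (4 to 12, fewest with no minimum TPM) of the 17 were lower in knockouts, as were 7.22% of all genes, and 4 (1 to 7, fewest with no minimum TPM or with an offset of 0.1 TPM or without either P10 control library and most on deposited TPM) had a smaller rise. Mup11 measured 475 and 308 scaled TPM in 1-month knockouts, against 6282 and 5459 in 1-month controls. For Mup11 the age difference was -3.81 ± 0.53 (SE; adjusted p = 0.0143), which was lost without either P10 control library (adjusted p = 0.0704 without the first P10 control library and 0.0514 without the second P10 control library). Mup2 measured 24.4 and 21.2 scaled TPM in 1-month knockouts, against 75.3 and 68.4 in 1-month controls, and its age difference of -2.65 ± 0.26 (SE; adjusted p = 0.00575) was kept without each library. The coding sequences of this family are nearly identical, so reads can pass from one member to another and single members are uncertain.

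The adult enzymes of drug and hormone metabolism came on in knockouts. Of 34 tested cytochrome P450 genes 27 rose and 2 (2 to 5, most on deposited TPM or with nuclear protein-coding scaling) fell (median 1.83), against 24 and 5 in controls, and 20 (13 to 20, fewest on deposited TPM) of 25 conjugating enzymes and 13 (8 to 13, fewest on deposited TPM) of 16 esterases and flavin monooxygenases rose. Cyp2f2, a P450 of periportal hepatocytes, measured 624 and 457 scaled TPM in 1-month knockouts and 13.2 and 11.3 in P10 knockouts, against 618 and 578 in 1-month controls and 19.4 and 16.4 in P10 controls. In knockouts Cyp2f2 changed by 5.34 ± 0.17 (SE; adjusted p = 1.07e-05). Ugt1a9, which attaches glucuronic acid to drugs, measured 184 and 176 scaled TPM in 1-month knockouts and 13.1 and 9.60 in P10 knockouts. In knockouts Ugt1a9 changed by 3.89 ± 0.16 (SE; adjusted p = 3.11e-05). In both the knockout ages were far apart and the age difference was not called. Cyp2e1, the ethanol-oxidizing P450, measured 1388 and 2199 scaled TPM in 1-month knockouts and 436 and 339 in P10 knockouts, against 4053 and 4642 in 1-month controls and 1243 and 1143 in P10 controls. It rose by 2.18 ± 0.24 (SE; adjusted p = 7.86e-04) in knockouts but stayed below both control libraries of 1 month.

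A few enzymes rose more in knockouts, from a lower start. Ces3a, a carboxylesterase of the endoplasmic reticulum (chromosome 8, 105048601 to 105058413, plus strand), measured 748 and 567 scaled TPM in 1-month knockouts and 4.76 and 4.95 in P10 knockouts, against 916 and 779.8 in 1-month controls and 40.3 and 34.8 in P10 controls. It was far below controls at P10 and at 1 month close to them without a called difference, with a change of 6.80 ± 0.16 (SE; adjusted p = 4.61e-06) in knockouts, 4.46 in controls, and an age difference of 2.34 ± 0.23 (SE; adjusted p = 0.00552). Cyp1a2, which oxidizes caffeine, measured 142 and 213 scaled TPM in 1-month knockouts and 22.8 and 17.0 in P10 knockouts, against 118 and 128 in 1-month controls and 74.2 and 74.1 in P10 controls. For Cyp1a2 the age difference was 2.35 ± 0.30 (SE; adjusted p = 0.0107), a call that was lost without either P10 control library (adjusted p = 0.0631 without the first P10 control library and 0.0641 without the second P10 control library). Cyp2j5, an arachidonic acid epoxygenase, also rose more in knockouts, by 2.70 against 1.33, with an age difference of 1.37 ± 0.18 (SE; adjusted p = 0.0114) that was lost without either P10 control library (adjusted p = 0.0782 without the first P10 control library and 0.0641 without the second P10 control library).

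Many targets of NRF2, a transcription factor of the oxidative stress response, were higher in knockouts at both ages. Of all genes 8.71% were higher at P10 and 8.85% at 1 month. Of 27 tested members 18 (9 to 20, fewest without either P10 control library) were higher than in controls at P10 and 12 (7 to 21, fewest with no minimum TPM and most with nuclear protein-coding scaling) at 1 month, none was called lower at either age, and 9 counted as persistent, meaning called in the same direction at both ages with no called age difference. With age 11 rose and 4 fell in knockouts (median 0.55), but on deposited TPM 6 rose and 10 fell (median -0.31). Gsta1, a glutathione transferase, measured 64.4 and 72.8 scaled TPM in 1-month knockouts and 4.93 and 8.99 in P10 knockouts, against 1.80 and 1.55 in 1-month controls and 0.128 and 0.113 in P10 controls. Its 4 groups did not overlap, with a rise of 3.17 in knockouts and 1.25 in controls. P10 controls were below 1 scaled TPM, where the offset of 1 understates the control rise. The authors' deposited differences from controls were 5.82 (log2) at P10 and 5.30 at 1 month, so a larger rise of Gsta1 in knockouts is not shown. Its called age difference was also lost without either P10 control library, among others. Gstm2 measured 112 and 138 scaled TPM in 1-month knockouts and 18.2 and 22.9 in P10 knockouts, against 16.1 and 20.9 in 1-month controls and 6.58 and 6.36 in P10 controls. Pgd, of the pentose phosphate pathway, fell with age in both genotypes and was higher in knockouts by 0.89 ± 0.10 (SE; adjusted p = 0.00356) at P10 and 1.28 ± 0.10 (SE; adjusted p = 7.31e-04) at 1 month. Genes of the Gsta and Gstm families have near-identical copies and are uncertain singly.

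Genes of nitrogen metabolism rose in both genotypes, and many were below controls at either age. Of 38 tested genes that make urea or break down amino acids 33 (10 to 34, fewest on deposited TPM) rose and 1 fell in knockouts, with a median of 1.26, and 30 (16 to 30, fewest on deposited TPM) rose and 1 (1 to 3, most with quantile normalization) fell in controls, with a median of 1.20. No age difference was called in limma, with 10 of the 38 at an unadjusted p under 0.05 (6 more positive and 4 more negative in knockouts), and 4 were called with quantile normalization. At P10 18 (1 to 19, fewest without the first P10 control library) of the 38 were lower in knockouts, as were 7.91% of all genes, and at 1 month 14 (2 to 18, fewest with quantile normalization) were, as were 7.22%.

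Arg1, which releases urea, measured 769 and 716 scaled TPM in 1-month knockouts and 168 and 179 in P10 knockouts, against 1395 and 1657 in 1-month controls and 276 and 264 in P10 controls. It rose by 2.09 ± 0.12 (SE; adjusted p = 8.99e-05) in knockouts and 2.49 in controls, and the knockout libraries lay below the control libraries at both ages. Tdo2, the first enzyme of tryptophan breakdown, measured 786 and 813 scaled TPM in 1-month knockouts and 37.4 and 44.2 in P10 knockouts, against 1614 and 1730.5 in 1-month controls and 146 and 122 in P10 controls. In knockouts Tdo2 changed by 4.26 ± 0.13 (SE; adjusted p = 9.08e-06). Hpd, of tyrosine breakdown, measured 942 and 1086 scaled TPM in 1-month knockouts and 246 and 262 in P10 knockouts, against 1940.2 and 2219.8 in 1-month controls and 556 and 515 in P10 controls. For all 3 the difference from controls was called at both ages and the age difference was not. The P10 difference of Arg1 was lost without any single P10 library (adjusted p = 0.0625 without the first P10 knockout library, 0.0688 without the second P10 knockout library, 0.149 without the first P10 control library and 0.11 without the second P10 control library), and that of Hpd without the first P10 control library (adjusted p = 0.0563). Gnmt, which uses S-adenosylmethionine, rose by 2.38 in knockouts and 2.35 in controls. Glud1, glutamate dehydrogenase, was the member that fell, with a log2 change of -0.94 ± 0.24 (SE; adjusted p = 0.0175) in knockouts that was lost without either of 2 libraries (adjusted p = 0.0715 without the first 1-month knockout library and 0.0895 without the first P10 knockout library).

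Gpt2, the mitochondrial alanine aminotransferase, was set apart by its early start. It measured 120.4 and 127 scaled TPM in 1-month knockouts and 63.1 and 83.9 in P10 knockouts, against 173 and 206 in 1-month controls and 6.90 and 6.76 in P10 controls. By group means P10 knockouts already held 10.8 times the level of P10 controls, and the rise of 0.75 ± 0.15 (SE; adjusted p = 0.0081) in knockouts, which reversed on deposited TPM, was smaller than that of 4.60 in controls, with an age difference of -3.85 ± 0.22 (SE; adjusted p = 0.00198). Baat, which conjugates bile acids to amino acids, had the same pattern: 77.1 and 94.3 scaled TPM in 1-month knockouts and 29.0 and 26.4 in P10 knockouts, against 123 and 144 in 1-month controls and 5.74 and 4.97 in P10 controls. For Baat the age difference was -2.81 ± 0.20 (SE; adjusted p = 0.00233). Both age differences were kept without each library.

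Genes of lipid oxidation and synthesis rose. Of 33 tested fatty acid oxidation genes 21 (9 to 25, fewest on deposited TPM) rose and 0 (0 to 3, most on deposited TPM) fell in knockouts (median 1.15), against 15 (8 to 20, fewest on deposited TPM) and 3 (1 to 7, fewest without the first P10 control library and most with quantile normalization) in controls. Of 21 lipogenic genes 15 (7 to 15, fewest on deposited TPM) rose and 2 (2 to 5, most on deposited TPM) fell (median 0.93), against 12 and 5 in controls. Cyp4a10, a fatty acid hydroxylase and target of PPAR-alpha, measured 1478 and 1274 scaled TPM in 1-month knockouts and 51.6 and 13.7 in P10 knockouts. In knockouts Cyp4a10 changed by 5.63 ± 0.58 (SE; adjusted p = 6.24e-04). Scd1, the stearoyl-CoA desaturase, measured 699 and 640.1 scaled TPM in 1-month knockouts and 12.8 and 26.9 in P10 knockouts, against 439 and 693 in 1-month controls and 2.17 and 2.51 in P10 controls. By group means it was 8.46 times higher in P10 knockouts than in P10 controls, and the genotypes overlapped at 1 month. Lpin1, which makes diacylglycerol and co-activates PPAR-alpha, measured 7.67 and 8.98 scaled TPM in 1-month knockouts and 2.09 and 2.16 in P10 knockouts, against 89.1 and 149.8 in 1-month controls and 2.72 and 1.60 in P10 controls. Here the age difference was -3.65 ± 0.38 (SE; adjusted p = 0.00664). The 16 tested core clock and clock output genes had a median difference from controls of -0.94 (log2) at 1 month and -0.05 at P10. They summed to 107 and 97.3 scaled TPM in 1-month knockouts, against 322 and 166 in 1-month controls. The clock list was split at 1 month, since 2 of the 16 were called higher in knockouts. The authors' deposited differences at that age were 1.37 (log2) for Arntl, against -2.24 for Per2 and -3.01 for Per3. Whether the hour of sampling differed between the groups was not tested, for Lpin1, the clock genes or any other gene named here.

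Most genes of adult glucose metabolism rose in both genotypes. Of 17 tested genes 11 (3 to 12, fewest on deposited TPM) rose in knockouts, with a median of 0.77, and 11 (3 to 11, fewest on deposited TPM) rose in controls. No age difference was called in limma, with 1 gene more positive and 5 more negative in knockouts at an unadjusted p under 0.05. On deposited TPM the direction was lost, since 3 rose and 4 fell in knockouts, with a median of -0.01. Of 10 fetal glucose genes 7 fell and 1 rose in knockouts, against 6 (2 to 7, fewest with quantile normalization) and 2 (0 to 2, fewest on deposited TPM) in controls. In bile acid synthesis and transport 16 (7 to 17, fewest on deposited TPM) of 24 tested genes rose and 1 fell in knockouts (median 1.11), against 15 (9 to 17, fewest on deposited TPM) and 2 (1 to 4, fewest without the first P10 control library and most with nuclear protein-coding scaling) in controls. Slco1a1, an uptake transporter for bile salts and steroids, measured 18.3 and 14.4 scaled TPM in 1-month knockouts and 0.0276 and 0.0250 in P10 knockouts, against 113 and 67.5 in 1-month controls and 0.0488 and 0.0794 in P10 controls. Its smaller rise in knockouts, with an age difference of -2.30 ± 0.33 (SE; adjusted p = 0.0151), was lost without 3 of the libraries (adjusted p = 0.0636 without the second P10 knockout library, 0.0834 without the first P10 control library and 0.076 without the second P10 control library).

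**Figure D4:**
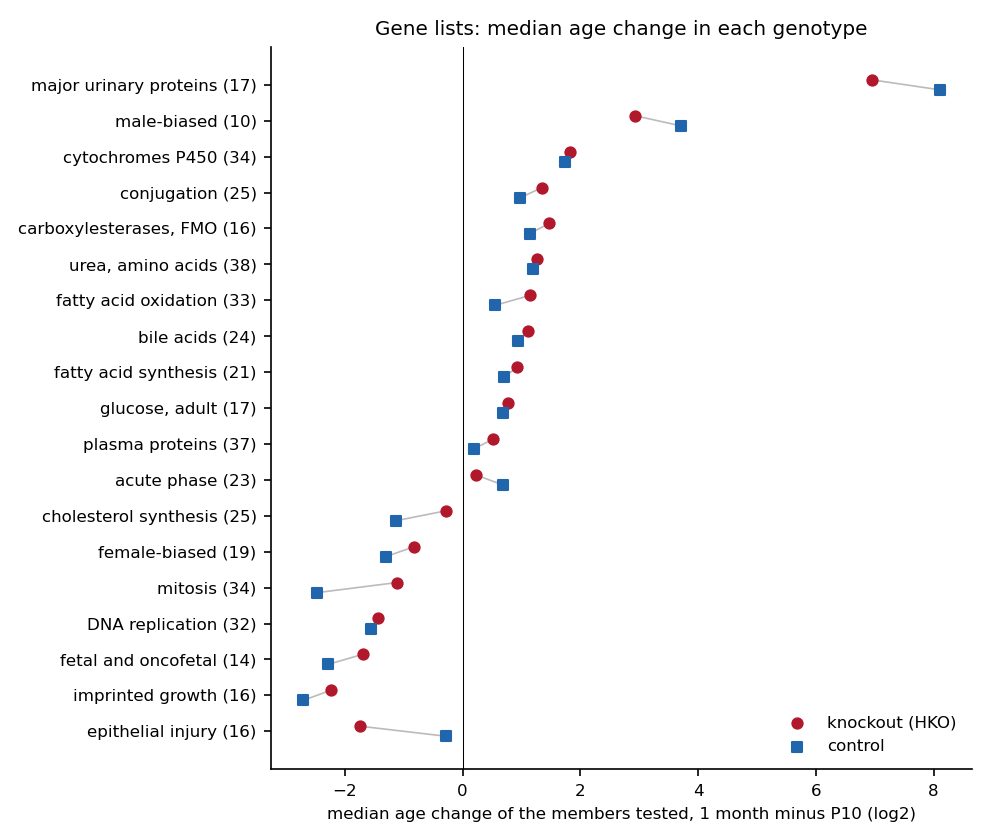
Median log2 change from P10 to 1 month of 19 gene lists in knockouts and in controls, with 0 marked. The Mup list rises most, at 6.95 in knockouts and 8.11 in controls, and the mitotic list shows a wide gap between genotypes, at -1.12 in knockouts and -2.47 in controls.

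Part of cholesterol synthesis fell less in knockouts than in controls, in a list that started lower at P10. Of 25 tested genes 10 (6 to 19, fewest without the first P10 knockout library and most on deposited TPM) fell and 2 (0 to 4, fewest on deposited TPM and most without the first P10 knockout library) rose in knockouts, with a median of -0.28, against 19 and 1 in controls, with a median of -1.14. The age change was more positive in knockouts for 9 (0 to 11, fewest without the second P10 control library) genes, and the median age difference was 0.79. Over all genes 3.21% had a more positive age change. The median difference of the list from controls was -0.47 (log2) at P10 and 0.30 at 1 month. Hmgcs1, which makes HMG-CoA for the pathway, measured 60.8 and 87.5 scaled TPM in 1-month knockouts and 90.8 and 63.1 in P10 knockouts, against 21.0 and 20.1 in 1-month controls and 144 and 134 in P10 controls. It did not change with age in knockouts beyond the spread (-0.05 ± 0.22 (SE; adjusted p = 0.86)) while it changed by -2.70 in controls, and the age difference was 2.64 ± 0.31 (SE; adjusted p = 0.00855). Idi1, which makes an isoprenoid unit, measured 21.7 and 27.2 scaled TPM in 1-month knockouts and 33.6 and 25.2 in P10 knockouts, against 7.89 and 7.05 in 1-month controls and 40.7 and 42.9 in P10 controls. For Idi1 the age difference was 2.09 ± 0.23 (SE; adjusted p = 0.0079). Sqle, squalene epoxidase, measured 10.2 and 9.14 scaled TPM in 1-month knockouts, against 1.99 and 1.42 in 1-month controls. For Sqle the age difference was 1.77 ± 0.19 (SE; adjusted p = 0.00723).

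This result leaned on few libraries. The 9 genes became 3 on deposited TPM, 10 with quantile normalization, 5 without the second P10 knockout library and 2 without the first P10 control library. Without the second P10 control library the adjusted p was 0.0514 for Hmgcs1, 0.0514 for Idi1 and 0.0514 for Sqle, and without the first it was 0.0522 for Hmgcs1. Tm7sf2, a sterol reductase, rose in knockouts, by 1.37 ± 0.11 (SE; adjusted p = 2.82e-04).

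Most tested male-typical genes rose. Of 10 tested male-biased genes 9 rose in knockouts (median 2.93) and 8 in controls (median 3.70), and none fell. At 1 month 3 of the 10 were lower in knockouts and 1 was higher, and the list summed to 2489 and 2092 in 1-month knockouts and 283 and 309 in P10 knockouts, against 8512 and 5007 in 1-month controls and 512 and 579.9 in P10 controls. Hsd3b5, a male-typical steroid dehydrogenase, was under the minimum and is in none of these counts. It measured 0.129 and 0.0909 scaled TPM in 1-month knockouts and 0.0671 and 0.0472 in P10 knockouts, against 18.4 and 2.90 in 1-month controls and 0.342 and 0.266 in P10 controls. In knockouts the gene was near 0 at either age. Elovl3, a fatty acid elongase, measured 23.3 and 30.9 scaled TPM in 1-month knockouts and 0.0620 and 0.0697 in P10 knockouts. In knockouts Elovl3 changed by 4.71 ± 0.40 (SE; adjusted p = 3.32e-04). Cyp2d9, a steroid hydroxylase, measured 736 and 732 scaled TPM in 1-month knockouts and 129.5 and 148 in P10 knockouts, against 771 and 614 in 1-month controls and 31.2 and 27.3 in P10 controls. It reached the control level by 1 month from a higher start, with an age difference of -2.11 ± 0.20 (SE; adjusted p = 0.0052).

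Some genes that mature males lose were lost less completely in knockouts, in a list that started lower at P10. The median difference of the female-biased list from controls was -1.60 (log2) at P10 and -0.02 at 1 month. The list summed to 406 and 268 scaled TPM in P10 knockouts, against 1165 and 1266 in P10 controls. At 1 month the sums were 267 and 269 in knockouts, against 284 and 351 in controls. Of 19 tested female-biased genes 6 rose and 7 fell in knockouts (median -0.82), against 3 (3 to 5, most without the first 1-month control library) and 9 in controls (median -1.31), and 6 (2 to 10, fewest without the second P10 control library and most without the second 1-month control library) had a more positive age change in knockouts. Sult2a2, a hydroxysteroid sulfotransferase (chromosome 7, 13733505 to 13779636, plus strand), measured 5.29 and 17.9 scaled TPM in 1-month knockouts and 24.1 and 9.08 in P10 knockouts, against 0.0189 and 0.198 in 1-month controls and 272 and 254 in P10 controls. The P10 and 1-month knockout libraries overlapped, both lay far below P10 controls and far above 1-month controls, and the age difference was 7.35 ± 0.81 (SE; adjusted p = 0.00762). Hao2, a peroxisomal hydroxy acid oxidase (chromosome 3, 98874521 to 98893239, minus strand), measured 1.77 and 1.68 scaled TPM in 1-month knockouts and 30.3 and 22.4 in P10 knockouts, against 0.0528 and 0.0974 in 1-month controls and 118 and 111 in P10 controls. Here the knockout fell by a log2 change of -3.31 against -6.75 in controls, with an age difference of 3.43 ± 0.20 (SE; adjusted p = 0.00198). Both calls held without each library, the second P10 knockout library with Xist included, and reads of Sult2a2 may be shared with near-identical Sult2a genes.

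Leaving out the Xist-positive library left 3 called age differences in the female-biased list, all more positive in knockouts. Cyp3a41a, a female-typical P450, measured 9.10 and 28.8 scaled TPM in 1-month knockouts and 37.8 and 29.1 in P10 knockouts, against 0.0706 and 0.00590 in 1-month controls and 86.6 and 110.2 in P10 controls. Its age difference of 5.59 ± 0.64 (SE; adjusted p = 0.00834) was lost without the second P10 control library (adjusted p = 0.0514 without the second P10 control library). Of 15 tested genes of the growth hormone axis 5 (1 to 6, fewest on deposited TPM) rose and 2 (2 to 5, most on deposited TPM) fell in knockouts, with a median of 0.19 that was -0.51 on deposited TPM. Igf1, the circulating growth factor made under growth hormone, measured 323 and 259 scaled TPM in 1-month knockouts and 118 and 94.2 in P10 knockouts, against 411 and 354 in 1-month controls and 263 and 260.1 in P10 controls. In knockouts Igf1 changed by 1.45 ± 0.16 (SE; adjusted p = 8.33e-04).

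Secreted plasma proteins gave no scaling-independent direction. Of 37 tested genes 20 rose and 3 fell in knockouts (median 0.52), but on deposited TPM 4 rose and 14 fell (median -0.34), with quantile normalization 8 rose and 12 fell (median -0.19), and with nuclear protein-coding scaling 11 rose and 11 fell. Against controls 25 (2 to 26, fewest without the first P10 control library) of the 37 were lower in knockouts at P10 and 13 (3 to 15, fewest on deposited TPM or with quantile normalization) at 1 month. Over all genes 7.91% were lower at P10 and 7.22% at 1 month. C9 of the terminal complement measured 196 and 182 scaled TPM in 1-month knockouts and 22.3 and 22.0 in P10 knockouts, against 348 and 257 in 1-month controls and 29.8 and 21.7 in P10 controls. It rose by 3.04 ± 0.19 (SE; adjusted p = 1.12e-04) in knockouts. F9, a clotting factor, measured 84.0 and 83.6 scaled TPM in 1-month knockouts and 31.5 and 25.8 in P10 knockouts, against 121 and 120.3 in 1-month controls and 56.0 and 54.0 in P10 controls. This gene rose by 1.52 ± 0.11 (SE; adjusted p = 1.99e-04). Ttr, the thyroxine carrier, measured 3948 and 3425 scaled TPM in 1-month knockouts and 2929 and 2565 in P10 knockouts, against 4798 and 4311 in 1-month controls and 8148 and 7589 in P10 controls. In P10 knockouts it was far below P10 controls, and at 1 month the genotypes were close, with differences from controls of -1.52 at P10 and -0.31 at 1 month.

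The stress and acute-phase response took another course. Of 23 tested acute-phase genes 5 (3 to 10, fewest on deposited TPM and most with 1 genotype fitted alone) rose and 4 (3 to 11, most on deposited TPM) fell in knockouts, with a median of 0.22 that was -0.63 on deposited TPM and -0.07 with quantile normalization, against 13 and 2 (2 to 5, most with quantile normalization) in controls, with a median of 0.68. The age change was more negative in knockouts for 7 (3 to 10, fewest without the second P10 control library), and at 1 month 15 (9 to 16, fewest with no minimum TPM or without the second 1-month knockout library) of the 23 were lower in knockouts. Among all genes 2.50% had a more negative age change in knockouts and 7.22% were lower at 1 month. Mt1, a metal-binding metallothionein (chromosome 8, 94179082 to 94180327, plus strand), measured 293 and 262 scaled TPM in 1-month knockouts and 195 and 166 in P10 knockouts, against 1335 and 1392 in 1-month controls and 120.0 and 73.7 in P10 controls. For Mt1 the age difference was -3.22 ± 0.31 (SE; adjusted p = 0.00553). Its partner Mt2 measured 271 and 176 scaled TPM in 1-month knockouts and 110.2 and 83.1 in P10 knockouts, against 1632 and 1519 in 1-month controls and 49.2 and 18.8 in P10 controls. For Mt2 the age difference was -4.47 ± 0.61 (SE; adjusted p = 0.0128). By group means 1-month knockouts held 1.54 times the Mt1 and 2.31 times the Mt2 of P10 knockouts, against 14.1 and 46.4 times in 1-month controls over P10 controls. Both age differences were called without each library.

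Lrg1, a secreted glycoprotein of inflammation, measured 112 and 93.9 scaled TPM in 1-month knockouts and 45.4 and 46.4 in P10 knockouts, against 285 and 216 in 1-month controls and 27.4 and 26.9 in P10 controls. Its smaller rise in knockouts was called with all libraries (adjusted p = 0.00723) but not without the second P10 control library (adjusted p = 0.0514). Serpina3k, a serine protease inhibitor, rose in both genotypes, by 8.35 ± 0.43 (SE; adjusted p = 6.13e-05) in knockouts, and belongs to a family of close copies. Lcn2, an iron-binding protein of injured liver, moved the other way. It measured 16.7 and 13.6 scaled TPM in 1-month knockouts and 166 and 264 in P10 knockouts, against 36.6 and 30.0 in 1-month controls and 26.7 and 30.0 in P10 controls. P10 knockouts stood far above the other 3 groups and 1-month knockouts were the lowest of all, with a change of -3.71 ± 0.23 (SE; adjusted p = 1.12e-04) in knockouts, 0.22 in controls and an age difference of -3.93 ± 0.33 (SE; adjusted p = 0.00367).

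Of 10 tested glucocorticoid-responsive genes 7 (2 to 7, fewest with no minimum TPM or without the second 1-month control library) were lower and 1 was higher in knockouts than in controls at 1 month. The shares over all genes at that age were 7.22% lower and 8.85% higher. Fkbp5, a chaperone of the glucocorticoid receptor, measured 10.9 and 9.80 scaled TPM in 1-month knockouts and 12.0 and 10.3 in P10 knockouts, against 92.8 and 101 in 1-month controls and 32.6 and 28.3 in P10 controls. It did not change with age in knockouts beyond the spread (-0.09 ± 0.12 (SE; adjusted p = 0.556)) and rose in controls, with an age difference of -1.74 ± 0.17 (SE; adjusted p = 0.00553). Tsc22d3, another target, rose in both, by 3.00 ± 0.18 (SE; adjusted p = 1.04e-04) in knockouts. Hsd11b1, which regenerates active glucocorticoid inside the cell, measured 238 and 219 scaled TPM in 1-month knockouts and 53.9 and 52.5 in P10 knockouts, against 433 and 427 in 1-month controls and 237 and 219 in P10 controls. It rose by 2.08 in knockouts against 0.91 in controls and stayed below controls at 1 month, with an age difference of 1.17 ± 0.14 (SE; adjusted p = 0.00836) that was lost without either P10 control library (adjusted p = 0.0657 without the first P10 control library and 0.0557 without the second P10 control library).

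Hepcidin, the hormone that blocks iron export, was high in knockouts ahead of time. Hamp (chromosome 7, 30942368 to 30944032, minus strand) measured 760.0 and 781 scaled TPM in 1-month knockouts and 507 and 825 in P10 knockouts, against 1237 and 549 in 1-month controls and 1.63 and 2.07 in P10 controls. Both P10 knockout libraries already lay near the 1-month libraries of either genotype, and P10 controls had almost none. The log2 change with age was 0.25 ± 0.39 (SE; adjusted p = 0.624) in knockouts and 8.18 in controls, the age difference was -7.93 ± 0.55 (SE; adjusted p = 0.0022), and the call held without each library. In the authors' deposited table the difference between knockout and control was 8.47 (log2; adjusted p = 3.61e-208) at P10 and -0.26 (adjusted p = 0.756) at 1 month.

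The second hepcidin gene did the opposite. Hamp2 measured 206 and 236 scaled TPM in 1-month knockouts and 0.0311 and 0.157 in P10 knockouts, against 337 and 177 in 1-month controls and 5.69 and 3.45 in P10 controls. P10 knockouts were below P10 controls, the 1-month groups overlapped, and the rise was 7.66 in knockouts against 5.49 in controls. Its age difference of 2.17 ± 0.45 (SE; adjusted p = 0.0432) was lost without each of 6 libraries (adjusted p = 0.0949 without the first 1-month knockout library, 0.0904 without the second 1-month knockout library, 0.0994 without the first P10 knockout library, 0.122 without the second P10 knockout library, 0.165 without the first P10 control library and 0.0934 without the second P10 control library). Tmprss6, a protease that lowers hepcidin, measured 101 and 98.9 scaled TPM in 1-month knockouts and 46.4 and 37.3 in P10 knockouts, against 109 and 107 in 1-month controls and 96.1 and 88.7 in P10 controls. It was low in P10 knockouts and close to controls at 1 month, with an age difference of 1.02 ± 0.17 (SE; adjusted p = 0.0247) that was lost without each of 4 libraries (adjusted p = 0.067 without the first 1-month knockout library, 0.0539 without the second 1-month control library, 0.138 without the first P10 control library and 0.101 without the second P10 control library).

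Most members of an epithelial injury list fell with age in knockouts, and most of them stayed above controls. The list was built from earlier results of these libraries, so its direction against controls is no independent evidence: 13 of 16 tested members were higher in knockouts at 1 month and 15 at P10. The median difference from controls was 2.16 (log2) at 1 month and 2.33 at P10, and with an offset of 0.1 TPM it was 3.41 and 2.68. Prok1, the remaining member, was under the minimum and is in no count, with 1.16 and 0.482 scaled TPM in P10 knockouts, against 30.5 and 27.5 in P10 controls, a difference in the other direction. With age 13 of the 16 fell and 1 rose in knockouts (median -1.74), against 5 (5 to 9, most on deposited TPM or with nuclear protein-coding scaling) and 1 in controls (median -0.28). The age difference was more negative in knockouts for 8 (2 to 8, fewest without either P10 control library) members and more positive for 3 (1 to 4, fewest without the second P10 knockout library or either P10 control library), and without the second P10 knockout library these were 5 and 1. Slpi, a secreted inhibitor of leukocyte proteases, measured 3.88 and 3.42 scaled TPM in 1-month knockouts and 36.5 and 53.9 in P10 knockouts, against 0.0902 and 0.0510 in 1-month controls and 0.501 and 0.409 in P10 controls. In knockouts Slpi changed by -3.29 ± 0.18 (SE; adjusted p = 7.16e-05), and the age difference was -2.85 ± 0.25 (SE; adjusted p = 0.00443). Tnfrsf12a, the TWEAK receptor on regenerating cells, measured 9.54 and 7.39 scaled TPM in 1-month knockouts and 35.3 and 40.0 in P10 knockouts, against 4.90 and 3.89 in 1-month controls and 4.48 and 4.25 in P10 controls. For Tnfrsf12a the age difference was -2.04 ± 0.21 (SE; adjusted p = 0.00671). In both genes the P10 knockout libraries stood alone at the top and the 1-month knockout libraries stayed above all control libraries.

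Anxa2, a calcium-dependent membrane binder of immature and injured hepatocytes, fell less in knockouts than in controls. It measured 13.9 and 12.3 scaled TPM in 1-month knockouts and 66.1 and 68.9 in P10 knockouts, against 0.404 and 0.426 in 1-month controls and 32.6 and 30.7 in P10 controls. Knockouts shut the gene in part and controls almost fully, with changes of -2.29 in knockouts and -4.53 in controls and an age difference of 2.24 ± 0.13 (SE; adjusted p = 0.00198). In the authors' deposited table its difference from controls was 1.08 (log2) at P10 and 4.89 at 1 month. Ly6d, a surface protein of activated epithelial cells, was the member that rose, with 96.6 and 75.2 scaled TPM in 1-month knockouts and 32.8 and 27.5 in P10 knockouts, against 0.630 and 0.673 in 1-month controls and 0.628 and 0.620 in P10 controls. In knockouts Ly6d changed by 1.47 ± 0.14 (SE; adjusted p = 5.03e-04).

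For genes of low level the age difference rests on the offset. Cldn4, a tight-junction protein, measured 0.401 and 0.262 scaled TPM in 1-month knockouts and 7.26 and 7.74 in P10 knockouts, and was listed at 0 in both 1-month controls with 0.0122 and 0.0301 in P10 controls. Its age difference was -2.65 ± 0.16 (SE; adjusted p = 0.00198), yet the authors' deposited table gave a difference from controls of 8.43 (log2) at P10 and 8.56 at 1 month. Slpi likewise still differed by 5.62 at 1 month in that table.

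Cxcl10 and most early-response genes were lower in 1-month than in P10 knockouts. Cxcl10, a chemokine induced by interferon (chromosome 5, 92346638 to 92348889, minus strand), measured 2.75 and 2.66 scaled TPM in 1-month knockouts and 41.0 and 40.9 in P10 knockouts, against 1.87 and 2.19 in 1-month controls and 6.03 and 6.13 in P10 controls. By group means P10 knockouts held 6.74 times the level of P10 controls and 1-month knockouts were near 1-month controls, with a change of -3.50 ± 0.09 (SE; adjusted p = 5.36e-06) and an age difference of -2.28 ± 0.13 (SE; adjusted p = 0.00198). Of 17 tested immediate early genes 11 fell and 1 rose in knockouts (median -1.20), against 8 and 4 (2 to 4, fewest on deposited TPM) in controls. Of 26 tested genes of the unfolded protein and integrated stress responses 3 (0 to 4, fewest on deposited TPM) rose and 8 (5 to 21, fewest with 1 genotype fitted alone or with no minimum TPM or without the first 1-month knockout library or the second P10 knockout library or either P10 control library and most on deposited TPM) fell in knockouts. Of 24 p53 targets 6 (0 to 6, fewest on deposited TPM) rose and 6 (3 to 14, fewest with no minimum TPM or without the second P10 knockout library and most on deposited TPM) fell. Over all genes 21.4% rose and 23.5% fell in knockouts. The median age change of the p53 targets was 0.01 in knockouts and 0.11 in controls. Their median difference from controls was 0.66 (log2) at P10 and 0.34 at 1 month, against 0.014 and 0.005 over all genes.

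Across all genes, the differences from controls present at P10 had several fates. At P10 1043 genes were higher (8.71%) and 948 lower (7.91%) in knockouts, and at 1 month 1060 were higher (8.85%) and 865 lower (7.22%). Persistent genes numbered 338 higher and 246 lower. Recovered genes, whose P10 difference was followed by a called age difference in the opposite direction that left less than 0.5 of it or no call, numbered 116 higher and 121 lower at P10. Late genes, with no called P10 difference, numbered 189 higher and 131 lower at 1 month. Recovered genes were picked by their P10 difference, whose libraries also enter the age difference. Without single libraries recovered genes numbered 20 to 294 and late genes 49 to 465, both fewest without the second P10 control library, and persistent genes 111 to 538, fewest without the first.

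The fates crossed with the steps. Of the 256 failed steps 116 were late and 90 were recovered. Those 90, of which 36 rose and 54 fell in controls, differed at P10 in the direction that controls later took, such as Hamp. Whether they had moved ahead of time or never reached the P10 control level was not tested. Of the 217 blunted steps 125 were late and 46 recovered, and of the 55 exceeded steps 38 were recovered and 10 late, such as Ces3a among the recovered. Genes that changed in knockouts only divided into 69 late, 63 recovered and 25 neither. Of 34 mitotic genes 22 were late, of 27 NRF2 targets 9 were persistent and of 16 epithelial injury genes 7 were recovered. Persistent genes were also 8 of 24 p53 targets, 11 of 37 plasma protein genes and 8 of 38 urea and amino acid genes. Over all 11981 genes 320 were late, 584 persistent and 237 recovered. The injury list was built from earlier results of these libraries, so its calls at P10 were partly given in advance. Its recovery also rests on the offset: with 0.1 TPM its median difference from controls was 3.41 at 1 month and 2.68 at P10.

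**Figure D5:**
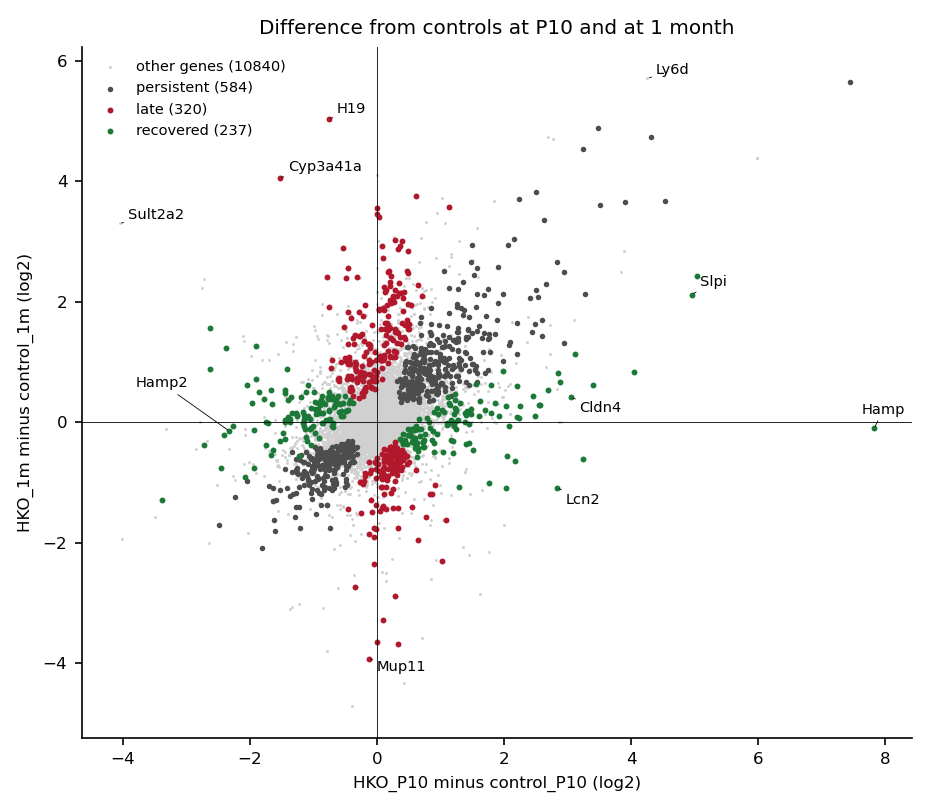
Log2 difference between knockouts and controls at 1 month (vertical axis) against that at P10 (horizontal axis), 1 point a gene, coloured as 584 persistent, 320 late, 237 recovered and 10840 other genes. Persistent genes lie along the diagonal, late genes along the vertical axis, and recovered genes along the horizontal axis, with Hamp at 7.83 at P10 and -0.10 at 1 month.

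Among 25 tested hepatocyte transcription factors 11 (1 to 13, fewest on deposited TPM) rose and 1 fell in knockouts, with a median of 0.37, but on deposited TPM 1 rose and 7 fell, with a median of -0.34. Over all genes 21.4% rose and 23.5% fell in knockouts. The scaled median of the list in controls was 0.38, and the age difference was called for 1 member in each direction. Onecut1, also called HNF6 (chromosome 9, 74861921 to 74891781, plus strand), measured 9.86 and 8.98 scaled TPM in 1-month knockouts and 3.51 and 2.31 in P10 knockouts, against 1.34 and 2.02 in 1-month controls and 5.36 and 6.80 in P10 controls. It rose in knockouts by 1.43 ± 0.20 (SE; adjusted p = 0.00181) and fell in controls by a log2 change of -1.41 ± 0.20 (SE; adjusted p = 0.00159), so that the genotypes exchanged places between the ages, with an age difference of 2.84 ± 0.28 (SE; adjusted p = 0.00569) that was kept without each library. Hnf4a, the master regulator of hepatocyte identity, measured 60.1 and 86.0 scaled TPM in 1-month knockouts and 51.1 and 41.1 in P10 knockouts, against 162 and 175 in 1-month controls and 56.1 and 55.4 in P10 controls. It was below both control libraries at 1 month, and its rise of 0.64 in knockouts reversed on deposited TPM and was lost without each of 4 libraries (adjusted p = 0.11 without the second 1-month knockout library, 0.147 without the second P10 knockout library, 0.0564 without the first P10 control library and 0.0564 without the second P10 control library).

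Of the 12 tested SR protein genes 7 (4 to 12, fewest without the second 1-month knockout library or the second P10 knockout library and most on deposited TPM) fell and none was called as rising with age in knockouts (median -0.52), against 4 (0 to 9, fewest without the second P10 control library and most on deposited TPM or with nuclear protein-coding scaling) and 1 in controls. Srsf3, a shuttling SR protein of the liver, measured 21.1 and 20.4 scaled TPM in 1-month knockouts and 35.9 and 39.4 in P10 knockouts, against 22.0 and 24.6 in 1-month controls and 30.1 and 34.6 in P10 controls. Tra2b, an SR-like activator, measured 17.1 and 18.6 scaled TPM in 1-month knockouts and 31.4 and 33.9 in P10 knockouts, against 22.4 and 23.6 in 1-month controls and 29.3 and 29.6 in P10 controls. Both fell in knockouts, by a log2 change of -0.83 ± 0.11 (SE; adjusted p = 0.00153) and -0.84 ± 0.09 (SE; adjusted p = 7.48e-04), and no age difference was called for either. Mbnl1, which sets adult splicing patterns, measured 12.7 and 12.3 scaled TPM in 1-month knockouts and 14.1 and 13.4 in P10 knockouts, against 20.5 and 21.0 in 1-month controls and 14.0 and 13.1 in P10 controls. It stood higher in both 1-month control libraries than in the other 6, with an age difference of -0.70 ± 0.12 (SE; adjusted p = 0.0252) that was lost without each of 5 libraries (adjusted p = 0.0587 without the first 1-month knockout library, 0.0564 without the first P10 knockout library, 0.0658 without the second P10 knockout library, 0.124 without the first P10 control library and 0.142 without the second P10 control library). The 13 mitochondrially encoded mRNAs rose in 10 (0 to 12, fewest with no minimum TPM) cases in knockouts and in 0 (0 to 3, most without either 1-month knockout library) in controls. The age difference was called for none of the 13 in limma, and for 0 at an unadjusted p under 0.05.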

How the data were processed

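RNA of purified hepatocytes was sequenced, and the authors deposited abundances in TPM for each transcript and, for each knockout comparison, a table of DESeq2 results with log2 fold changes and p-values per the file headers. Per the submitters' processing notes, bcl2fastq 2.17.1.14, kallisto 0.46.0 and DESeq2 were used with GRCm38 (mm10). TPM are shares of a library corrected for transcript length and keep no sequencing depth, so depth is unknown, no count model was fitted, and no counting intervals can be given. The table held 137767 transcripts of 54446 genes, of which 53229 matched GENCODE M21.

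TPM were summed per gene and divided by a median-of-ratios factor of each library. Genes that averaged 1 or more deposited TPM over the 4 knockout libraries were tested on log2(scaled TPM + 1) with limma 3.58.1 in R 4.3.3 (lmFit, eBayes with trend, two-sided) in 1 fit of 4 group means over 8 libraries, which leaves 4 residual degrees of freedom. The p-values were adjusted by the Benjamini-Hochberg method over all 11981 genes, and the threshold was 0.05. The offset of 1 understates fold changes of low genes. Errors of log2 changes are standard errors of this fit, and n = 2 libraries in every group.

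Members, gene lists and tests were chosen with earlier results of these data known. Named genes are Srsf1, 22 fixed maturation markers, the largest age changes and age differences among called genes averaging 5 or more TPM, the largest of each class of step, and the members of each list with the smallest p or a call against their list. Genes that these rules name but the text leaves out were summarised in the counts. The list members named as under the minimum and those named at the limit of the filter stand outside these rules.

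Same-numbered libraries were checked for pairing: the correlations of their deviations from the group means ran from -0.174 to 0.213 and were -0.109 for knockouts of both ages, so the numbers were not taken to pair libraries and no block was used. Alternatives were deposited TPM without scaling, quantile normalization, other filters and offsets, 1 genotype fitted alone, no trend, a replicate block and leaving out each library. Scaling to nuclear protein-coding genes and a crossed block were added after the data were seen. The 6 libraries of the acute model were not used here.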

Additional observations from a re-analysis of the deposited data

Results flagged for a closer look

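The change from P10 to 1 month differed between knockouts and controls by the test of the difference itself for 385 genes with a more positive change in knockouts and 300 with a more negative one. The genes below were picked by size among these, and the values are log2 age changes in knockouts minus those in controls.

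More positive changes in knockouts were those of Sult2a2 (7.35), Cyp3a41a (5.59) and Sult2a1 (4.99), of Sult2a5 (3.53) and Hao2 (3.43), all of which fell further in controls, and of H19 (5.79), Nrep (3.55) and Lpl (3.42). More negative changes in knockouts were those of Hamp (-7.93), Mt2 (-4.47), Rgs16 (-4.03), Lcn2 (-3.93), Gpt2 (-3.85), Mup11 (-3.81), Chd9 (-3.67) and Lpin1 (-3.65). The call was lost without single libraries for Sult2a1 (adjusted p = 0.0677 without the second P10 knockout library, 0.0503 without the first 1-month control library, 0.0547 without the second 1-month control library, 0.115 without the first P10 control library and 0.0984 without the second P10 control library), Sult2a5 (adjusted p = 0.0657 without the first P10 control library and 0.0563 without the second P10 control library), Rgs16 (adjusted p = 0.06 without the first 1-month knockout library, 0.0509 without the first P10 knockout library, 0.0606 without the second P10 knockout library and 0.0695 without the second P10 control library) and Chd9 (adjusted p = 0.0658 without the second P10 knockout library, 0.0849 without the first P10 control library and 0.076 without the second P10 control library). It was also lost for Cyp3a41a (adjusted p = 0.0514 without the second P10 control library) and Mup11 (adjusted p = 0.0704 without the first P10 control library and 0.0514 without the second P10 control library), and the other genes named here kept it without each library. No group has 4 or more libraries, so single libraries were not examined as outliers.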

How the results depend on the processing

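The numbers of followed steps stayed within 1.5 times of their value under every alternative run, and no count of genes in any comparison moved that far with an offset of 0.1 TPM, without the mean-variance trend or with the minimum set over all 8 libraries. These are totals and do not show which genes stay in a class. Most genes of every class of step or fate left it when some single library was left out. On deposited TPM the counts became 523 rises and 7530 falls in knockouts, 696 and 4638 in controls, and 115 age differences more positive in knockouts. There 205 genes were lower in knockouts at P10, 617 were higher and 201 lower at 1 month, and 93 steps were blunted, 102 failed, 77 changed in knockouts only, 341 persisted and 108 were late. Nuclear protein-coding scaling gave 1220 rises and 5744 falls in knockouts, 1124 and 5635 in controls, 3872 higher and 458 lower at P10, 3624 higher and 245 lower at 1 month, 1862 persistent and 194 late genes. Quantile normalization gave 705 higher and 569 lower genes at 1 month, 112 exceeded steps, 434 recovered and 201 late genes. With no minimum TPM there were 4554 falls in controls, 557 lower genes at 1 month, 130 blunted and 29 exceeded steps and 348 persistent genes. The shift of the median gene, 0.71 and 0.43 lower (log2) on deposited TPM at 1 month in knockouts and controls, is part of each of the first counts, and other causes were not tested. Of the named genes, Gpt2 and Hnf4a reversed on deposited TPM, with changes of -0.09 and -0.20 in knockouts.

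Leaving out 1 library at a time gave 1690 to 2887 rises and 1972 to 3002 falls in knockouts, 1584 to 2816 and 1972 to 2993 in controls, and 49 to 550 more positive and 34 to 347 more negative age differences. Differences from controls numbered 170 to 1172 higher and 78 to 1108 lower genes at P10 and 650 to 1300 and 370 to 750 at 1 month. Blunted steps numbered 37 to 314, failed 28 to 312, exceeded 6 to 95, knockout-only changes 12 to 165, recovered genes 20 to 294, persistent genes 111 to 538 and late genes 49 to 465. A lone library left in a group was assumed to vary like the other groups.

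With a replicate block 2441 genes rose and 2713 fell in knockouts, and 275 age differences were more positive and 208 more negative, which moved no count by 1.5 times. The numbers were not taken to pair libraries, and with 2 libraries a group no sample could be matched to its own number. A crossed pairing, chosen after seeing the data, gave 2666 rises, 2860 falls, 325 more positive and 226 more negative age differences. TPM hold no depth, so what depth limits could not be examined.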
